A study of Mus musculus with 6 samples.

Results

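The regions described here are genomic intervals of mouse embryonic stem cells (ESCs) that kept OCT4 but not NANOG at an intermediate level of Esrrb. They were chosen by their presence in 3 peak lists, those of both factors in Esrrb-GFP high cells and of OCT4 in Esrrb-GFP medium cells, and by their absence from the other 3 lists, NANOG in medium cells and both factors in Esrrb-GFP negative cells. Of 23767 intervals bound in at least 1 of the 6 lists, 717 have this pattern (3.02%), and they are called NANOG-first regions below. The fractions are sorted cells and not a time course, and the authors report that high and medium cells rapidly interconvert. An order of loss over time is therefore inferred, and words such as first, lost and kept refer to the lists of the fractions. They make up 35.3% (95% Wilson interval 33.2 to 37.4) of the 2034 Class I regions, which bind both factors in high cells and neither in negative cells, and 19.5% of the 3675 regions that bind both factors in high cells.

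All 6 libraries come from E-GFPd1 cells, labelled Esrrb-2a-GFPd-IBIH, an E14Tg2a line in which a destabilised GFP was linked through a 2a peptide to Esrrb. The cells were grown in serum with LIF, fixed, and sorted into the 10% of the distribution with the most GFP (high), the 15% next to the negative gate (medium) and the negative cells. OCT4 was precipitated with a goat antibody and NANOG with a rabbit antibody made in-house, and the material of 3 ChIPs was pooled into 1 library for each factor and fraction. The lists hold 12449, 14464 and 10369 OCT4 regions and 9425, 4729 and 286 NANOG regions for high, medium and negative cells.

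This is 1 engineered line, and since each factor and fraction has a single library, neither an error over replicates nor a test between fractions is possible. The lists give only chromosome, start and end, so the read depth and the strength of binding are unknown. A region is absent from a list where it kept less than 50% of its highest depth-normalised signal, so NANOG may still be present below that limit, and the signal of regions just inside or just outside it is not part of the lists. No RNA was measured in these libraries, so markers of the cell state could not be examined here.

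OCT4 is a POU factor that holds cells in pluripotency and usually binds DNA beside SOX2, on a joined Oct-Sox motif or on an octamer. NANOG is a homeodomain factor, and ESRRB is an orphan nuclear receptor that binds a single extended half-site. NANOG and ESRRB belong, with KLF factors and TFCP2L1, to the network of naive pluripotency, which is dismantled as ESCs move towards the primed state while OCT4 remains.

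The sequences that follow are from the mouse assembly mm9 (NCBIM37), plus strand, counted from 1, and are examples of NANOG-first regions. Capitals mark the matches named on each line, and matches to other motifs stay in lower case. The first 3 loci follow a rule on the naive gene lists, given with the methods, that asks for an ESRRB, Oct-Sox or octamer match. Wwox and Baz2b are not in these lists. The sequences therefore do not show how often NANOG-first regions near naive genes carry a match. The flanks shown at Dppa2 and the last 4 sequences were chosen after their values were seen.

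Zfp57, chr17:37119212-37119391, capitals an Oct-Sox match: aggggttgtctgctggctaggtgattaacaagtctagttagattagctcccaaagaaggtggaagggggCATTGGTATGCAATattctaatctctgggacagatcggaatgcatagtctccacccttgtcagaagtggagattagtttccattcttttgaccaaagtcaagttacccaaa
Zfp281, chr1:138509892-138510031, capitals an ESRRB match on the minus strand: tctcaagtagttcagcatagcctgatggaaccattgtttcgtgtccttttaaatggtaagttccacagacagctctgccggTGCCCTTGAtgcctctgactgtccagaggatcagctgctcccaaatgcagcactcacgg
Dppa2 and Dppa4, chr16:48309082-48309281, capitals an ESRRB and then a KLF match: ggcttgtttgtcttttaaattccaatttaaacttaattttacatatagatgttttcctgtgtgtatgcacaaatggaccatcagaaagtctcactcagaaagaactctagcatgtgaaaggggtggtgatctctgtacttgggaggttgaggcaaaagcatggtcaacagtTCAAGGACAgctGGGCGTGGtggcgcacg
Zfp57, chr17:37164612-37164731, capitals an Oct-Sox match: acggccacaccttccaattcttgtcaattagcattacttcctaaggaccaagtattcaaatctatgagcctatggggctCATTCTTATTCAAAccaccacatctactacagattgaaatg
Wwox, chr8:117210432-117210591, capitals 2 ESRRB matches and then an Oct-Sox match: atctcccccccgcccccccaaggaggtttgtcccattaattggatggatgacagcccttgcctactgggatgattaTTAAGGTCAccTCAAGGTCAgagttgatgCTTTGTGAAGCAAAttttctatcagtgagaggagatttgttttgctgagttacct
Baz2b, chr2:60035012-60035231, capitals an ESRRB match on the minus strand and then an Oct-Sox match: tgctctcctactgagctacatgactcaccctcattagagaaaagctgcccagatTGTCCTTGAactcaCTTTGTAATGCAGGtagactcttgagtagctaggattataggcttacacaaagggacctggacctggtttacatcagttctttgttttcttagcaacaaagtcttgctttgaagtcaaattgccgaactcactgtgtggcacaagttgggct
Tcfcp2l1, chr1:120522152-120522371, no match: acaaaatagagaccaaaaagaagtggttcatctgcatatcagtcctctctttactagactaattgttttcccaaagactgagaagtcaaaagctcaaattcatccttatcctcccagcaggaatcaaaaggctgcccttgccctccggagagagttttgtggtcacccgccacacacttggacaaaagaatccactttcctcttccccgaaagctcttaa

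The Zfp57 region carries CATTGGTATGCAAT at 37119281 to 37119294, which has 2 mismatches to the Oct-Sox motif. The second Zfp57 sequence carries CATTCTTATTCAAA, also with 2 mismatches, and its window resembles 74 other bound windows over at least 50 bp, so it is not unique among the bound sequences. At Zfp281 the ESRRB match reads TCAAGGGCA on the minus strand. The bound interval near Dppa2 and Dppa4 is only 60 bp wide, from 48309152 to 48309211, and both of its matches, TCAAGGACA and GGGCGTGG, lie outside the interval, centred 75 and 87 bp from its centre. No repeat annotation was used, so whether these or other printed matches lie in repeats was not examined. The intronic Wwox region was picked because it holds an exact ESRRB site, TCAAGGTCA, 11 bp from its centre, and an Oct-Sox match with 1 mismatch, CTTTGTGAAGCAAA, 32 bp from it. The Baz2b region holds TCAAGGACA on the minus strand and CTTTGTAATGCAGG with 2 mismatches. The Tcfcp2l1 region is shown as one without a match to any of the 9 motifs searched within 100 bp of its centre.

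NANOG-first is the third most frequent of the binding patterns of regions with both factors in high cells. Both factors were listed in medium and neither in negative cells at 842 regions. OCT4 was listed in every fraction at 813 regions with NANOG in medium and 648 without it. The 475 Class I regions without OCT4 in medium cells are made up of 249 without NANOG and 226 with NANOG in medium. As background to the rule, 52.3% of all NANOG regions of high cells were not listed for NANOG in medium cells, and 41.6% of the OCT4 regions of both high and medium cells were not listed for OCT4 in negative cells. These counts fix the choice of the regions, so nothing is tested on them.

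**Figure D1:**
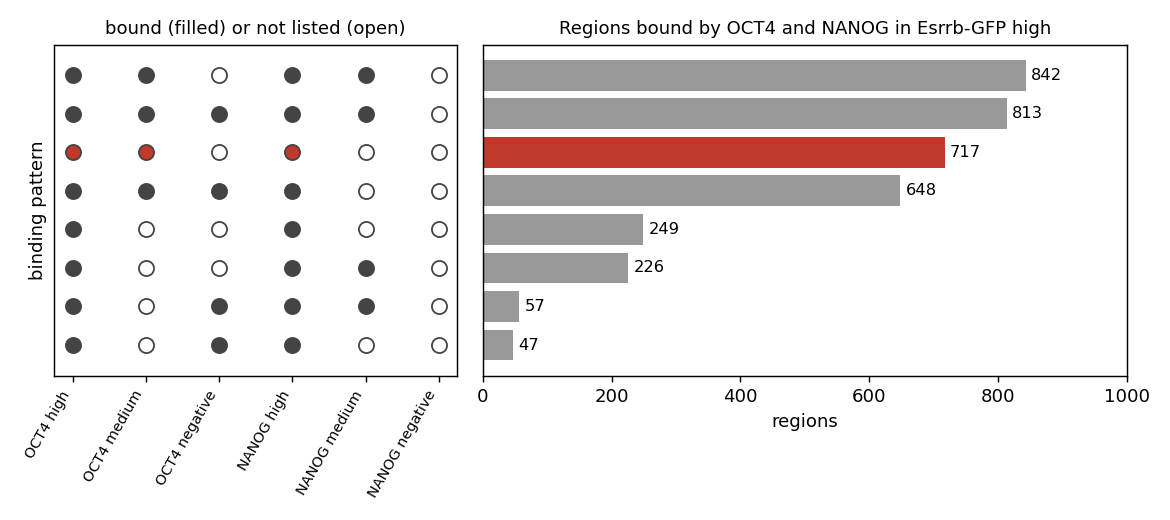
Regions that bind both factors in the high fraction, by their pattern over the 6 libraries (filled circle, bound; open circle, not listed), with the number of regions for the 8 most frequent patterns. The NANOG-first pattern (red) has 717 regions, between 813 regions that keep OCT4 and have NANOG in medium and 648 that keep OCT4 without NANOG in medium.

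The median NANOG-first region was 180 bp wide, with quartiles of 120 and 260 bp and extremes of 40 and 1020 bp, and together they covered 147140 bp. They were spread over the genome. In 9 places 2 of them lay within 10 kb of each other, and the other 699 had none so close. Their share of the co-bound regions ran from 11.7% (7.23 to 18.4) on chromosome 15, with 15 of 128, to 28.1% (21.2 to 36.3) on chromosome 14, with 38 of 135. Chromosome X held 15 of them.

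The comparisons below set NANOG-first regions against 3 classes of co-bound regions. Class I regions with both factors in medium differ from them by NANOG in medium. Class I regions without OCT4 in medium differ by OCT4 in medium, and 226 of them also by NANOG in medium. Class II regions without NANOG in medium differ by OCT4 in negative cells. Motifs were searched on both strands within 100 bp of the region centre, a window of 200 bases. Each difference is an odds ratio with its 95% Woolf interval, and a difference was called where that interval left out 1. Regions are not replicates, so the intervals hold only the error of counting regions within these 6 libraries.

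ESRRB sites were the motif that set NANOG-first regions apart from Class II most clearly. A match to TCAAGGTCA with up to 1 mismatch was present at 132 of 717 NANOG-first regions, 18.4% (15.7 to 21.4), against 11.2% of all bound regions and 7.95% of windows 10 kb downstream of NANOG-first regions. Among Class II regions without NANOG in medium the share was 9.57% (7.54 to 12.1), and the odds ratio of NANOG-first regions against them was 2.13 (1.54 to 2.95). Both classes had lost NANOG in medium cells, and they differ by rule only in OCT4 of negative cells. A higher share of ESRRB matches in Class I than in Class II as a whole was already known from these lists, so this is no independent support for it.

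Within Class I, with up to 1 mismatch allowed, the ESRRB share of NANOG-first regions lay between those of the other 2 groups, and neither difference was called. It was 20.8% (18.2 to 23.7) where both factors stayed until medium, an odds ratio of 0.86 (0.67 to 1.11), and 14.3% (11.5 to 17.8) where OCT4 was gone by medium, an odds ratio of 1.35 (0.98 to 1.86). Neither interval shows that the shares were alike, and the second ratio was called when only the interval itself was searched, 1.40 (1.01 to 1.93), or when regions within 500 bp were merged, 1.51 (1.08 to 2.11). For exact sites alone both ratios turned, to 1.91 (0.99 to 3.67) and 0.88 (0.47 to 1.64), and neither was called, so the order within Class I depends on the mismatch limit. Class II regions that kept NANOG in medium, given as a description, had a match at 14.1% (11.9 to 16.7) of 813 regions.

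An exact TCAAGGTCA was found at 24 NANOG-first regions, and 24 different sequences were found in all, the exact site included. A substitution is written as the letter of TCAAGGTCA, its position from the 5′ end, and the letter found. T1G was the most frequent, at 19 regions, followed by T1C at 12, C2G and T7A at 10 each, and T1A and T7C at 9 each. Substitutions were most frequent at position 1, with 40 pairs of a region and a variant, and at position 7, with 25, and least frequent at position 6, with 2. A single match was found at 115 regions, 2 matches at 16 and 3 matches at 1. Variants and positions were not counted in other bound regions or in windows away from the regions. A match was also present at 7.95% of windows 10 kb downstream of NANOG-first regions. The profile of substitutions is thus a description and cannot be read as particular to NANOG-first regions.

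The Oct-Sox motif lies on the other side of the comparison. A match with up to 2 mismatches to this 14-letter composite of a SOX and an octamer site was found at 158 NANOG-first regions, 22.0% (19.2 to 25.2), against 17.7% of all bound regions and 2.65% of windows 10 kb downstream. The share was 17.8% where both factors stayed until medium and 17.1% where OCT4 was gone by medium, with odds ratios of 1.30 (1.02 to 1.67) and 1.37 (1.02 to 1.85). Against the 28.4% (25.1 to 32.0) of Class II regions without NANOG in medium the odds ratio was 0.71 (0.56 to 0.91). NANOG-first regions thus had matches more often than the other Class I regions and less often than Class II regions in these windows. The difference from regions with both factors until medium turned to 0.92 (0.49 to 1.71) when only 1 mismatch was allowed. All 3 intervals held 1 when widened for the 27 motif comparisons. The paper's search for motifs that differ between Class I and Class II did not find Oct-Sox, and it proposes equal presence in both. That search used short oligonucleotides over the whole classes, so the 2 measures are unlike.

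Exact matches to the octamer ATGCAAAT were present at 51 NANOG-first regions, 7.11% (5.45 to 9.23), against 7.86% of all bound regions, and no octamer difference was called. Of the NANOG-first regions, 12 had both an octamer and an Oct-Sox match, which can be the same bases, since the composite motif contains most of the octamer. Taken as either motif, 27.5% (24.3 to 30.9) of NANOG-first regions had a site for OCT4 in this sense. The share was higher than the 20.0% of Class I regions without OCT4 in medium, an odds ratio of 1.52 (1.15 to 2.00), and lower than the 33.5% of Class II regions without NANOG in medium, an odds ratio of 0.75 (0.60 to 0.95). Against Class I regions with both factors in medium, with 23.4%, the odds ratio was 1.24 (0.99 to 1.56). The paper had already reported an octamer motif at Class II peaks of these libraries, so the ratio against Class II is no independent support for that.

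KLF sites, GGGCGTGG or GGGTGTGG, were present at 37 NANOG-first regions, 5.16% (3.77 to 7.03), against 4.17% of all bound regions. The odds ratio was 1.93 (1.02 to 3.68) against Class I regions without OCT4 in medium, where 13 of 475 had a match, and 1.80 (1.03 to 3.17) against Class II regions without NANOG in medium, where 19 of 648 did. Both rest on few regions, and neither was called in windows of 50 bp either side, with ratios of 2.28 (0.84 to 6.23) and 1.94 (0.83 to 4.53). The 33 matches among Class I regions with both factors in medium, 3.92%, gave 1.33 (0.83 to 2.16). The paper had already reported KLF motifs as enriched at Class I over Class II peaks of these libraries. The KLF ratio against Class II is therefore no independent support for that.

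**Figure D2:**
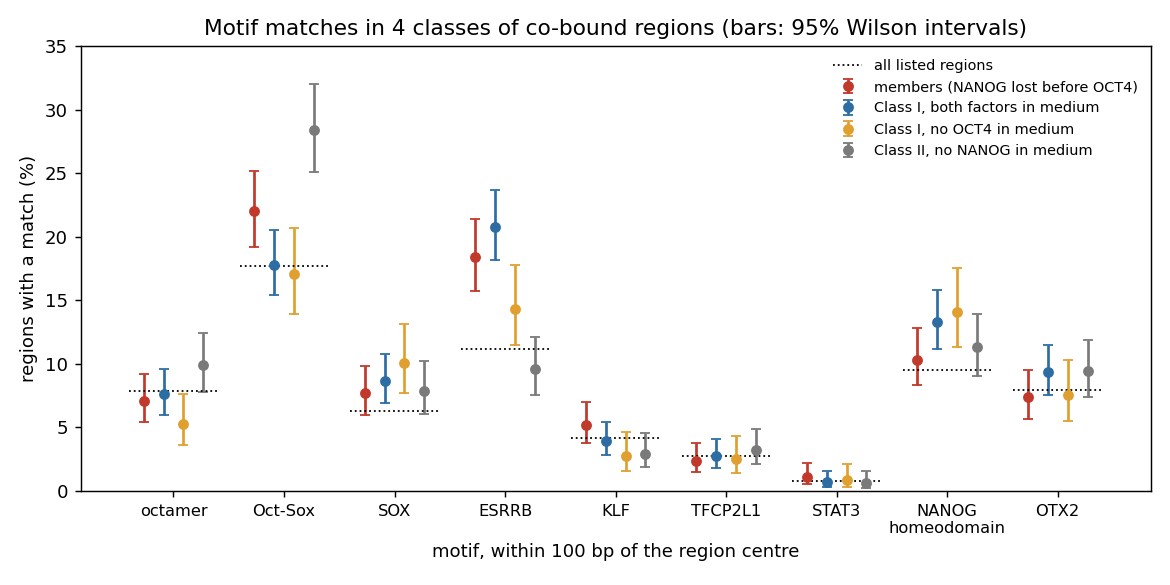
Share of regions (%) with a motif match within 100 bp of the centre, for 9 motifs on the horizontal axis and 4 classes of co-bound regions (points, with 95% Wilson intervals as bars), and for all 23767 bound regions (dotted lines). NANOG-first regions (red) stand at 18.4% for ESRRB and 22.0% for Oct-Sox, while Class II regions without NANOG in medium (grey) stand at 9.57% and 28.4%.

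The other motifs differed less. TAATGG, a core bound by the NANOG homeodomain, was found at 10.3% (8.30 to 12.8) of NANOG-first regions, close to the 9.21% of windows 10 kb downstream and the 9.52% of all bound regions. Against the 13.3% of Class I regions with both factors in medium the odds ratio was 0.75 (0.55 to 1.02), which was called in windows of 50 bp either side, 0.66 (0.44 to 0.97), over 1 kb from start sites, 0.72 (0.52 to 0.99), without regions that had copies, 0.65 (0.46 to 0.91), and with regions merged within 500 bp, 0.68 (0.50 to 0.93). Against the 14.1% of Class I regions without OCT4 in medium the odds ratio was 0.70 (0.49 to 1.00), with an upper limit just below 1 before rounding, and it was not called in windows of 50 bp, 0.70 (0.44 to 1.09), or 250 bp, 0.80 (0.62 to 1.05), either side, nor with GC content as a stratum, 0.77 (0.53 to 1.11). Against the 11.3% of Class II regions without NANOG in medium the TAATGG ratio was 0.91 (0.64 to 1.28), not called. With 1 mismatch allowed it was 1.41 (1.04 to 1.90), called in the other direction. TAATCC, bound by OTX2 in primed cells, was present at 9.90% (7.93 to 12.3) of windows 10 kb downstream, 7.39% of NANOG-first regions and 7.95% of all bound regions. The SOX site CATTGTT, which overlaps the first letters of the Oct-Sox motif, was present at 7.67% against 6.26%. The TFCP2L1 pattern of 2 copies of CCAG 6 bases apart was present at 2.37% against 2.76%, and the STAT3 palindrome TTCCNGGAA at 1.12% against 0.791%. In all, 7 of 27 motif comparisons were called, and 1 of them, ESRRB against Class II, was still called when the intervals were widened for that number.

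Of the 132 NANOG-first regions with an ESRRB match 19.7% also had an octamer or Oct-Sox match, near the 18.1% of all bound regions with an ESRRB match. Both an ESRRB and an octamer or Oct-Sox match were present at 26 regions, 3.63% (2.49 to 5.26), an ESRRB match alone at 106, 14.8%, and an octamer or Oct-Sox match alone at 171, 23.8%. Over all bound regions these shares were 2.02%, 9.18% and 21.1%. An ESRRB match without either OCT4 motif was found at 6.79% (5.10 to 8.99) of Class II regions without NANOG in medium. At 55.1% of NANOG-first regions none of ESRRB, octamer, Oct-Sox and KLF was found in the window, against 64.7% of all bound regions, which says only that these letters were not there.

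The 2 motifs were placed differently around the centres of NANOG-first regions. Oct-Sox matches were concentrated at the centre, with 8.79% and 8.09% of regions in the 2 central bins of 50 bp, 3.07% and 3.35% in the next bins, and 1.39% and 1.26% in those from 100 to 150 bp. ESRRB matches formed a broad plateau, with 3.91% and 5.16% in the central bins, 4.74% and 5.86% in the next, and 4.32% and 4.04% from 100 to 150 bp. In the bins from 250 to 500 bp on either side, each ESRRB bin held 0.558% to 2.51% of the regions. These profiles are a description, and the centre is that of the merged peaks of all libraries.

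**Figure D3:**
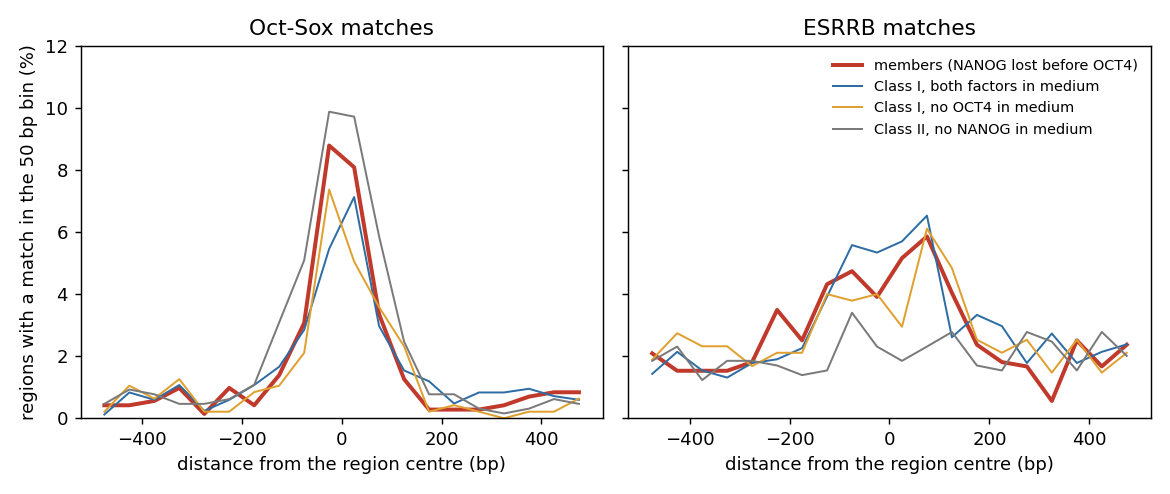
Share of regions (%) with an Oct-Sox match (left) or an ESRRB match (right) in bins of 50 bp, by distance of the match from the region centre (bp), for 4 classes of co-bound regions. In NANOG-first regions (thick red line) Oct-Sox matches peak at 8.79% beside the centre, and ESRRB matches stay between 3.91% and 5.86% within 150 bp on either side.

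Base composition separated NANOG-first regions only from the Class I regions without OCT4 in medium. The mean GC content of their windows was 46.8% ± 4.75 (SD over 717 regions) against 45.0% ± 4.97, a difference of 1.84 percentage points (95% interval 1.27 to 2.40). They held 1.89 CpG on average against 1.55, a difference of 0.35 (0.16 to 0.54), and 23.6% held none against 27.8%. The differences in GC content from Class I regions with both factors in medium, -0.30 (-0.78 to 0.17), and from Class II regions without NANOG in medium, -0.31 (-0.81 to 0.18), were not called. With GC content as a stratum, the KLF ratio against Class I regions without OCT4 in medium was 1.68 (0.88 to 3.20).

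NANOG-first regions were mainly distal. Their centres lay within 1 kb of an annotated transcription start site at 33 regions, 4.60% (3.30 to 6.39), in an exon at 2.09%, in an intron at 35.6% and between genes at 57.7%. The median distance to the nearest start site was 19707 bp, and 26.6% lay more than 50 kb from any. Among all bound regions 8.90% lay within 1 kb of a start site. The odds ratio of this share against Class I regions with both factors in medium, of which 6.65% lay there, was 0.68 (0.44 to 1.05), and within 5 kb it was 0.76 (0.59 to 0.97). Against the other classes the ratios were 0.99 (0.57 to 1.73) and 0.77 (0.48 to 1.25).

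Another bound region lay within 20 kb of 59.1% (55.5 to 62.7) of NANOG-first regions. A region that held OCT4 in negative cells lay that close to 30.7% (27.4 to 34.2) of them and to 36.3% (32.7 to 40.0) of Class II regions without NANOG in medium, an odds ratio of 0.78 (0.62 to 0.97). Taking 1 region per run of the same class within 10 kb, this became 0.81 (0.64 to 1.02), which was not called. A region with NANOG in medium cells lay within 20 kb of 21.1% (18.2 to 24.2) of NANOG-first regions and of 24.8% (22.0 to 27.8) of Class I regions with both factors in medium, with an odds ratio of 0.81 (0.64 to 1.03). Within 5 kb the shares were 9.90% and 13.8%, with a ratio of 0.69 (0.50 to 0.94). The lists of OCT4 in negative cells and of NANOG in medium cells also separate these classes by rule. Regions of the same locus are not independent, so the neighbour ratios are no independent support for a difference between the classes.

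**Figure D4:**
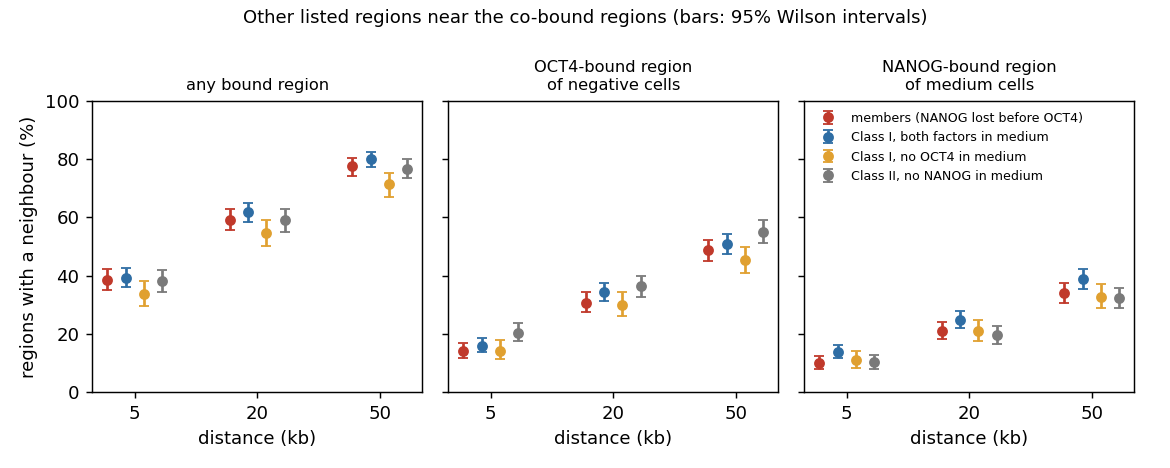
Share of co-bound regions (%) with another bound region within 5, 20 or 50 kb, for any bound region, for regions holding OCT4 in negative cells and for regions holding NANOG in medium cells (points, 4 classes, with 95% Wilson intervals). For NANOG-first regions (red) the shares within 20 kb were 59.1%, 30.7% and 21.1%.

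Some regions have near copies among the other bound sequences. A window alike over at least 100 bp with 80% identity existed elsewhere in the lists for 136 NANOG-first regions, 19.0% (16.3 to 22.0), against 20.7% of all bound regions. Class I regions with both factors in medium had such copies at 23.9%, an odds ratio of 0.75 (0.58 to 0.95) for NANOG-first regions against them. Of the NANOG-first regions with an ESRRB match 28 of 132 had a copy, and of those with an Oct-Sox match 32 of 158. Most of these regions thus had no copy among the bound windows at this limit. Copies elsewhere in the genome were not sought. With at least 50 bp aligned, 29.4% (26.2 to 32.9) of NANOG-first regions had a copy, against 30.8% of all bound regions. Reads from near copies can be hard to place, and how the alignment treated them was not given in the sources used here. Without the regions that had copies the Oct-Sox ratio against Class I regions with both factors in medium was 1.28 (0.96 to 1.70).

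Genes were assigned where a region lay within 20 kb of the gene body. At 496 NANOG-first regions there was a gene of any kind so close, and 587 of 22380 protein-coding genes (2.62%) had at least 1 NANOG-first region. Of the 587 genes, 68 (11.6%) also had a Class I region with both factors in medium, 44 (7.50%) a Class I region without OCT4 in medium and 38 (6.47%) a Class II region without NANOG in medium, which were 9.24%, 11.4% and 8.03% of the genes near those classes. Over all 22380 protein-coding genes the shares near these classes were 3.29%, 1.73% and 2.11%. Each class was thus found more often near the 587 genes than near protein-coding genes at large. For 458 of the 587 genes none of these 3 classes was near. The same count was not made over all genes, so it does not mark a separate set of genes.

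Among 192 genes in 11 lists on pluripotency, signalling, chromatin and lineage, 20 (10.4%) had a NANOG-first region within 20 kb. Of these genes 90 had any co-bound region, and 22.2% (14.9 to 31.8) of the 90 had a NANOG-first region, beside 23.6% (22.0 to 25.3) of the 2486 protein-coding genes with a co-bound region. The higher share of listed genes was thus not seen among genes that had a co-bound region. Class I regions with both factors in medium were near 31 of the 192 genes, Class II regions without NANOG in medium near 22, and Class I regions without OCT4 in medium near 10. At 12 of the 20 genes no other region with both factors in high cells lay within 20 kb. The same count was not made over all protein-coding genes with a NANOG-first region, so it describes these genes without setting them apart.

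Of 20 genes for naive transcription factors, 4 had a NANOG-first region. Tcfcp2l1, a factor that acts downstream of LIF, had the region printed above, 2260 bp upstream of its start. An intronic region of the gene, chr1:120539332-120539691, had both factors in high cells only. Klf2, a Krüppel-like factor of the naive network, had a NANOG-first region at chr8:74857432-74857511, 14540 bp downstream of the start and beyond the gene. Within 1 kb of it lay a region, chr8:74858332-74858451, that kept both factors until medium. Another region near Klf2, chr8:74840112-74840211, held OCT4 in every fraction and NANOG in high and medium cells. Zfp42, which encodes the naive marker REX1, had a NANOG-first region of 480 bp at chr8:44406072-44406551, 13949 bp upstream, with a KLF match. None of the 4 other bound regions near Zfp42 held NANOG in medium or OCT4 in negative cells. This lack of both was seen at only 4 of the 20 listed genes with a NANOG-first region. Zfp281, a zinc finger factor linked to the exit from naive pluripotency, had the region with the ESRRB match, 11516 bp upstream.

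Zfp57 had more NANOG-first regions than any other gene. It encodes a KRAB zinc finger protein that protects DNA methylation at imprinted loci. Of 10 bound regions within 20 kb, the 4 that bound both factors in high cells were all NANOG-first. They lie at 18806, 5556 and 3546 bp upstream of the start and at 26564 bp downstream of it, at chr17:37119212-37119391, chr17:37132392-37132711, chr17:37134452-37134671 and chr17:37164612-37164731. The first and last carry the Oct-Sox matches printed above, and the middle ones have no match to the 9 motifs within 100 bp of their centres. None of the other 6 regions held NANOG in medium cells, and 1, chr17:37160052-37160251, held OCT4 in negative cells. The 4 regions share a neighbourhood and are not independent, and 3 of them each are also counted for 2410137M14Rik, for H2-M5, an MHC class I gene, and for Mog, a myelin gene.

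Other genes expressed in naive cells had single regions. Dppa2 and Dppa4, neighbouring genes for paired nuclear proteins of early embryos and ESCs, share the 60 bp region printed above, 1408 bp upstream of Dppa2 and 25334 bp from the start of Dppa4. Fgf4, the ligand through which ESCs drive their own ERK signalling, had a region of 480 bp, chr7:152043672-152044151, 3379 bp upstream. It had no match within 100 bp of its centre, and the rest of the region was not searched for this. Morc1, which acts in transposon silencing in germ cells, had an intronic region, chr16:48475312-48475551. Naive marker genes with a NANOG-first region numbered 5 of 23, against 8 with a Class I region that kept both factors in medium and 9 with a Class II region without NANOG in medium.

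DNA methylation and chromatin genes were also among them. Tet1, an enzyme that oxidises 5-methylcytosine, had a NANOG-first region at chr10:62355572-62355831, within 1 kb of an annotated start site inside the gene and 6164 bp from the first start, and it held a STAT3 match. At 62356192 to 62356271 and 62359652 to 62359851 the same gene had regions that had lost OCT4 in medium cells. Uhrf1, which brings the maintenance methyltransferase to replicated DNA, had chr17:56429132-56429451, 13452 bp upstream of its start but within 1 kb of another annotated start site. Jarid2, a Polycomb cofactor, had chr13:44817552-44817811, 7161 bp upstream, and Chd7, a chromatin remodeller, had chr4:8615232-8615671, 2101 bp upstream. At Jarid2, chr13:44823952-44824191 and chr13:44847252-44847351 held OCT4 in every fraction and NANOG in high and medium cells. Of 10 DNA methylation genes 2 had a NANOG-first region, and of 20 chromatin regulators 2 did.

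Of 18 genes of FGF and ERK signalling 2 had a NANOG-first region, Spry4 and Fgfr2. Fzd7, a Wnt receptor, and Lgr4, a receptor for R-spondins, were 2 of 20 Wnt genes, and the Lgr4 region, chr2:109783472-109783631, lay in an intron near a Class II region, chr2:109782372-109782571. Spry4, a feedback inhibitor of ERK signalling, had a region 27310 bp from its start. The FGF receptor gene Fgfr2 counts through chr7:137408212-137408311, but the annotation used stretches this gene from 137305965 to 140315033, so its 45 bound regions are not comparable with those of other genes. Sox11, a SOX factor of primed and neural cells, was the only 1 of 19 formative and primed genes. T, the mesoderm factor Brachyury, had chr17:8622892-8623271, 4206 bp upstream, and Msx2, a homeobox gene, had chr13:53556872-53557151, and they were 2 of 25 lineage genes. No gene of the core factor list (5 genes), the LIF and STAT3 list (12) or the Nodal and BMP list (20) had a NANOG-first region within 20 kb. Only 3, 4 and 5 genes of these lists had any co-bound region, so their lack of NANOG-first regions says little. Within 50 kb 1 gene of the core factor list had a NANOG-first region.

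**Figure D5:**
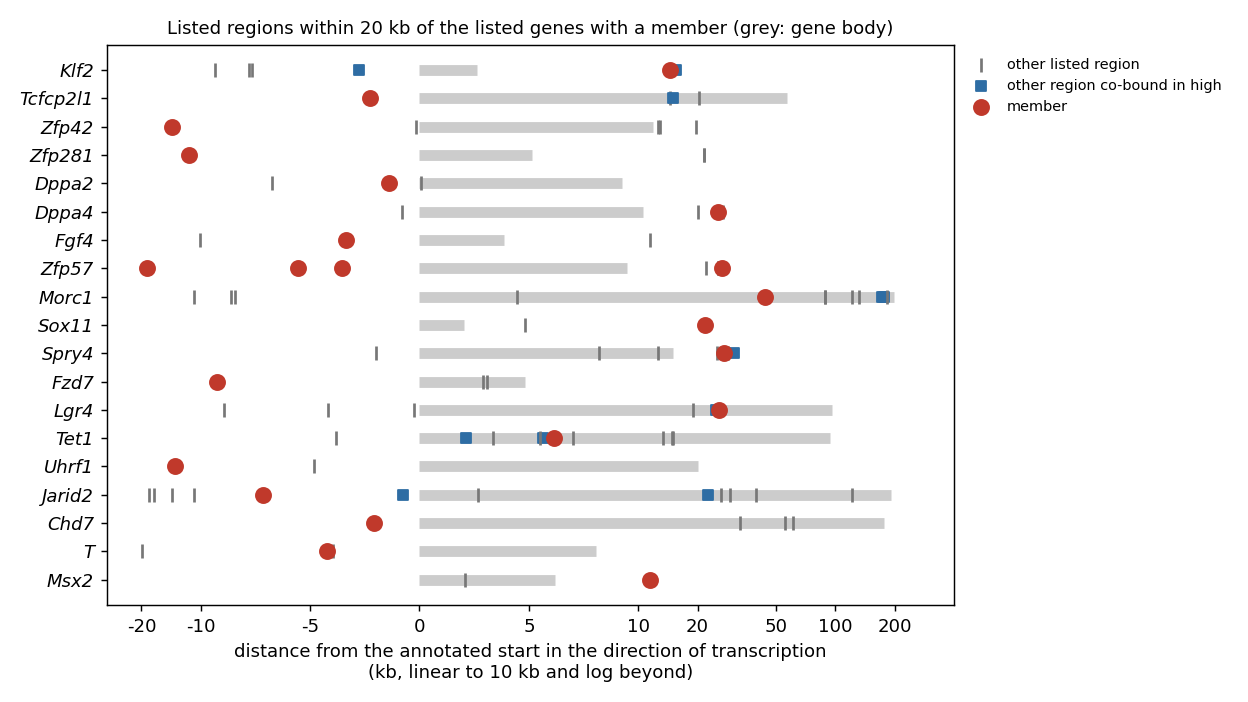
Bound regions within 20 kb of 19 genes of the 11 lists that have a NANOG-first region, by distance from the annotated start in the direction of transcription (kb, linear to 10 kb and logarithmic beyond), with the gene body as a grey bar. NANOG-first regions (red, here "member") number 4 at Zfp57 and 1 at each other gene, blue squares are other regions with both factors in high cells, and Fgfr2 was left out for its annotated length.

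Outside the lists, several genes had more than 1 NANOG-first region. Auts2 and Cdh13, the latter encoding T-cadherin, had 3 each in introns, of 19 and 20 bound regions. Akap2, which encodes a kinase anchoring protein, and the overlapping AF064781 shared 2 intronic regions, both with an Oct-Sox match. Bhlhe40, a bHLH repressor, had 2 downstream regions, of which chr6:108635592-108635971 held an Oct-Sox match. Baz2b, a bromodomain gene, had 2 intronic regions, and chr2:60035012-60035231 held both ESRRB and Oct-Sox matches. Of the 587 genes, 561 had a single NANOG-first region, 20 had 2, 5 had 3 and 1 had 4.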

How the data were processed

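OCT4 and NANOG ChIP-Seq of 3 sorted fractions was analysed, 6 libraries grouped by the antibody and fraction in their labels. The deposited files are lists of intervals without scores. The authors aligned reads to mm9 (Bowtie, per the submitters' processing notes; its version is not given in the sources used here), used GeneProf with SISSRs for peak calling, joined peaks that overlapped between libraries, and dropped a region from a fraction below 50% of its highest depth-normalised signal. Widths are therefore those of merged peaks, and depth is unknown.

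Intervals were intersected exactly. The regions, gene lists and motifs were chosen with earlier results of these data known. Genes and start sites came from GENCODE vM1 (37310 genes). Named genes were those of the 11 lists with a region within 20 kb and the 10 protein-coding genes with most regions. Sequences were the region of at most 300 bp with an ESRRB, Oct-Sox or octamer match nearest the start of each gene of the 2 naive lists; 4 genes at 3 loci qualified. Sox1 was not found in the annotation. Near copies were sought with blastn 2.17.0, identity 80% over 100 bp.

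Alternatives were other windows, mismatch limits, strata of GC content or width, autosomes, regions over 1 kb from start sites, 1 region per run, regions without copies, merging within 100 or 500 bp, a level adjusted for 27 comparisons, and other distances; 1 region per run for neighbours was added after the data had been seen. Python 3.11.15, numpy 2.4.6, statsmodels 0.14.6, samtools 1.23.1 and matplotlib 3.10.9 were used, and the functions were tested on simulated data.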

Additional observations from a re-analysis of the deposited data

How the results depend on the processing

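No paired analysis was possible because a single library stands for each factor and fraction, and no replicate could be left out. The ESRRB ratio against Class II regions without NANOG in medium was called under every one of its alternatives, from 1.90 to 7.45. The highest was for exact sites only and had a wide interval, 2.23 to 24.85. For exact sites the ESRRB ratios within Class I changed direction without being called, to 1.91 (0.99 to 3.67) where both factors stayed until medium and 0.88 (0.47 to 1.64) where OCT4 was gone by medium. The number of NANOG-first regions stayed within 1.5 times of 717 under each alternative, and the listed genes near them fell to 10 at 5 kb.

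In the following, the ratios are those of NANOG-first regions against Class I regions with both factors in medium (A), Class I regions without OCT4 in medium (B) or Class II regions without NANOG in medium (C). Calls lost for Oct-Sox were A 1.15 and B 1.23 in windows of 250 bp, C 0.84 in windows of 50 bp, A 1.27 in the interval itself, B 1.09 with 1 mismatch, where A reversed to 0.92, A 1.26 by GC content, A 1.28 by width, A 1.28 without copies, A 1.26 and B 1.31 merged within 500 bp, and A 1.30, B 1.37 and C 0.71 with intervals adjusted for 27 comparisons. Calls lost for KLF were B 2.28 and C 1.94 in windows of 50 bp, B 1.68 by GC content, B 1.92 and C 1.72 over 1 kb from start sites, B 1.86 without copies, B 1.32 and C 1.71 merged within 500 bp, and B 1.93 and C 1.80 adjusted for the number of comparisons. Calls lost for the NANOG homeodomain were B 0.70 and 0.80 in windows of 50 and 250 bp, 0.77 in the interval itself, 0.79 with 1 mismatch, 0.77 by GC content, 0.72 by width, 0.71 with 1 region per run and 0.70 adjusted for the number of comparisons. The OCT4 neighbour ratio C was 0.81 with 1 region per run.

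Calls gained were ESRRB B 1.40 in the interval itself and 1.51 merged within 500 bp, octamer C 0.67 by GC content and 0.67 on autosomes, promoter A 0.76 within 5 kb, NANOG neighbours A 0.69 within 5 kb and 0.81 within 50 kb, any neighbour B 1.37 within 50 kb, copies C 0.69 at 90% identity, SOX B 0.76 with 1 mismatch, and NANOG homeodomain A 0.66 in windows of 50 bp, 0.72 over 1 kb from start sites, 0.65 without copies and 0.68 merged within 500 bp. The NANOG homeodomain ratio C turned from 0.91, not called, to 1.41 (1.04 to 1.90) with 1 mismatch, where it was called. The causes were not tested. Of 382 alternative values, 333 kept their call or lack of one, and 38 of these, not called in either setting, changed direction. The lists hold no depth, so weak binding in medium or negative cells cannot be told from none.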
